A study of Caenorhabditis elegans with 6 samples.

Results

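The genes described here are the fatty acid beta-oxidation and acyl-CoA genes of C. elegans, picked from the expression table by gene name. They are the rows whose name starts with acdh-, acs-, acox-, ech-, maoc-, cpt- or hacd- and a digit. These prefixes picked 48 of the 16391 rows, with 10 acyl-CoA dehydrogenases (acdh-), 18 acyl-CoA synthetases (acs-), 5 acyl-CoA oxidases (acox-), 8 enoyl-CoA hydratase family genes (ech-), the single gene maoc-1 and 6 carnitine palmitoyl transferases (cpt-), while 0 rows carried the hacd- prefix. The rule reads no measured value. A prefix names an enzyme family and not a route, so some members act outside beta-oxidation. Another 12 genes that carry one of these prefixes in the Ensembl annotation were not analysed here.

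Whole worms of the wild-type strain N2 were used for RNA-seq, and they carried no mutation or transgene. All worms were at the L4 larval stage and fed E. coli OP50. There were 3 libraries for 15°C and 3 for 25°C cultivation, and the comparison asks which of these genes differ in expression at the warm temperature, a mild heat stress. The sample records speak of growth from L1 larvae that had been synchronized, whereas the methods of the study describe parents that were moved to each temperature and whose progeny grew up there, with egg laying at 15°C begun earlier to match development. Nothing names separate animals, cultures or days for the libraries, so the p-values measure the spread between these libraries, which may be technical.

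Fatty acids enter metabolism when an acyl-CoA synthetase joins them to coenzyme A. For entry into mitochondria, the carnitine palmitoyl transferases move long-chain acyl groups from coenzyme A to carnitine and back. Inside, acyl-CoA dehydrogenases, enoyl-CoA hydratases, hydroxyacyl-CoA dehydrogenases and thiolases then remove acetyl-CoA in repeated rounds. In peroxisomes, acyl-CoA oxidases take the first step, and C. elegans uses this route, with MAOC-1, DHS-28 and DAF-22, to shorten the side chains of the ascaroside pheromones as well as long-chain fatty acids. Related enzymes break down propionate and branched-chain amino acids.

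Values are FPKM, fragment counts scaled to transcript length and to all mapped fragments of a library, as the authors deposited them. Differences were tested with limma on log2(FPKM + 0.5), a scale on which low values give too small a fold change, on the 12996 genes whose mean reached 1 FPKM. Genes were called, and are said to rise or fall, where the log2 fold change was beyond 1 and the adjusted p was under 0.01. Sequencing depth is unknown, so precision rests on the spread between libraries. The FPKM of a library summed to between 2865856 and 3313082 at 15°C and between 2663992 and 2776526 at 25°C. Because of this difference, scaling to equal sums moved the median over all tested genes, on the log2 scale, from -0.032 to 0.15, and rescaling to TPM moved it to 0.12. Both divide each library by its sum, and they differ only in the units to which the added 0.5 and the filter apply. Some of the lists of stage and tissue markers differed between the temperatures, most plainly those of yolk and oocyte genes. The 5 yolk protein genes summed to 2760 to 4626 FPKM at 15°C and 1568 to 1910 FPKM at 25°C, with 3 of 5 called lower. The 8 oocyte genes summed to 940 to 1324 FPKM at 15°C and 400 to 534 FPKM at 25°C, with 6 of 8 called lower. Of all tested genes, 5.59% were called lower and 6.96% higher. Of 9 sperm genes, limma and treat (its test against a 2-fold change) called 0, and 1 was higher and 1 lower by unadjusted p under 0.05, a level that 22.9% of all tested genes passed as higher and 26.9% as lower. Of the 4 molting genes tested, 2 were called higher, while nas-37 was lower in every 25°C library (log2 fold change -0.92, limma adjusted p = 0.013). Of 7 intestinal genes 1 was called higher, elt-7, a GATA factor, and by unadjusted p 3 were higher and 0 lower. In 4 of the 7 every 25°C library was higher, among them vha-6, a proton pump subunit, at 170 ± 31.5 and 313 ± 2.96 FPKM (SD, n = 3 for each), and in 1, act-5, every one was lower. Over all tested genes, every 25°C library was higher in 25.9% and lower in 28.7%. The summed level of the 7 overlapped, at 7276 to 9458 FPKM at 15°C and 6064 to 8296 FPKM at 25°C, but mtl-2 alone made up 5988 FPKM of the 15°C mean of 8062 FPKM. nas-37, vha-6, act-5 and mtl-2 are named after their values were seen. No gene of these lists was at 0 throughout. The part of stage and tissue in the results below was not tested, and in whole worms fewer cells of a type and less RNA per cell cannot be told apart.

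Of the 48 members, 47 passed the filter and were tested, and 8 were called. 5 rose at 25°C, namely acdh-6, acs-2, ech-9, ech-1.1 and acdh-10, and 3 fell, namely ech-7, acs-19 and acs-1. This is 17% of the tested members, against 12.5% of all tested genes, with 10.6% of members called higher against 6.96% of all genes, and 6.38% called lower against 5.59%. The member not tested was cpt-3, with 0.308, 0.285 and 0.611 FPKM in the 15°C libraries against 0.0890, 0.180 and 0.0265 in those at 25°C. Without the fold threshold, 15 members passed an adjusted p of 0.01, 31.9% against 19.6% of all tested genes, 11 of them higher, where 9.83% of all tested genes were, and 4 lower, where 9.76% were. By unadjusted p under 0.05, 20 members were higher and 8 lower, against 22.9% and 26.9% of all tested genes. In 32 of the 47 members the 2 sets of libraries did not overlap, against 54.7% of all tested genes. In 24 members every library at 25°C lay above those at 15°C, against 25.9% of all tested genes, and in 8 members every one lay below, against 28.7%. The log2 fold change was above 0 in 32 of 47 members, against 48.2% of all tested genes. Its median was 0.30 where that of all tested genes was -0.032. With equal sums these medians were 0.49 and 0.15.

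The number of members called depended on single libraries. It was 5 without 25°C replicate 3 and 6 without 15°C replicate 1 or 2, and the number called higher was 3 without 15°C replicate 2 or 25°C replicate 3. A two-sided exact permutation of the libraries put each of the 8 called members at p = 0.10, and a design of 3 against 3 cannot go lower.

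**Figure D1:**
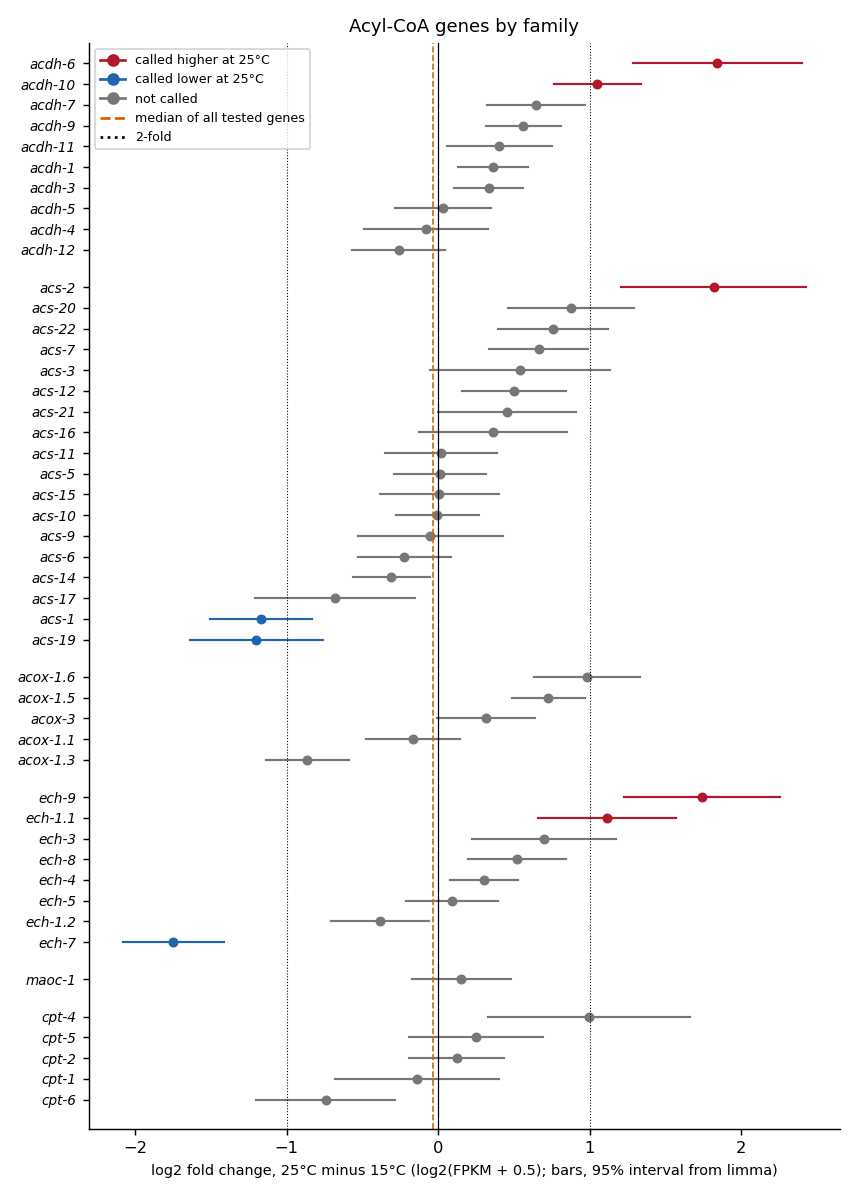
Log2 fold change of the 47 tested members at 25°C against 15°C, on the log2(FPKM + 0.5) scale, grouped by family, with the 95% interval from limma as bars. Red and blue mark the 5 members called higher and the 3 called lower, and the dotted lines a 2-fold change. The dashed line is the median of all tested genes, -0.032, and most tested genes of each family lie to its right.

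Acyl-CoA synthetases carry out the activation step, and 3 of the 18 were called, 1 higher and 2 lower. Over all tested genes 12.5% were called, 6.96% higher and 5.59% lower. acs-2 encodes a mitochondrial acyl-CoA synthetase that is a well-known target of the nuclear receptor NHR-49 and is induced by fasting. It lies on chromosome V of WBcel235 from 15567394 to 15569897, on the plus strand. It was at 4.66, 7.11 and 9.45 FPKM in the 15°C libraries and at 20.6, 29.4 and 26.7 FPKM in the 25°C libraries. The groups lay well apart, although the 15°C libraries themselves had a coefficient of variation of 33.8%, close to the 33.9% of acdh-6. The rise was 3.61-fold in means, a log2 fold change of 1.82 ± 0.26 (SE, limma adjusted p = 0.0024). Without 25°C replicate 3 the call was lost, with a log2 fold change of 1.78 and an adjusted p of 0.011 from limma, above the threshold of 0.01.

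acs-1 and acs-19 went the other way. acs-1, which activates fatty acids for the monomethyl branched-chain route, measured 72.5, 61.1 and 80.7 FPKM in the 15°C libraries against 34.4, 31.2 and 28.4 in those at 25°C, a log2 fold change of -1.17 ± 0.14 (SE, limma adjusted p = 0.0013). It fell in every setting that left out 1 library, but it was at -0.97 with rescaling to TPM and at -0.99 with equal sums, under the 2-fold threshold. acs-1 shares part of its locus on chromosome V, from 6524989 to 6532089, with hpo-26 on the opposite strand, which was at 76.3 ± 11.6 and 74.1 ± 6.75 FPKM (SD, n = 3 for each). The libraries were stranded, but whether the counting used the strand is not given in the sources used here.

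acs-19 is related to the mammalian acetyl-CoA synthetases, which make acetyl-CoA from acetate. It measured 113.9, 106.2 and 144.7 FPKM in the 15°C libraries against 42.1, 63.7 and 53.0 in those at 25°C. Every 25°C library lay below every 15°C library, and with -1.2 ± 0.19 (SE) as log2 fold change it passed (limma adjusted p = 0.0034). Its call was lost without 15°C replicate 1 (-1.24, adjusted p = 0.013 from limma), 15°C replicate 3 (-1.07, adjusted p = 0.010) or 25°C replicate 3 (-1.21, adjusted p = 0.014), and with equal sums (-1.01, adjusted p = 0.011).

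The synthetase with the highest mean level, acs-5, measured 127.9, 138.6 and 168.2 FPKM in the 15°C libraries against 139.6, 152.7 and 143.4 in those at 25°C. These ranges overlapped, and the 95% interval of its log2 fold change ran from -0.29 to 0.31. The pair acs-20 and acs-22, which encode fatty acid transport proteins needed for the surface barrier of the worm, were higher at 25°C by less than 2-fold, and are named after their values were seen. acs-20 had a log2 fold change of 0.88 (adjusted p = 0.0085 from limma) and acs-22 of 0.76 (adjusted p = 0.0088). acs-20 was called with equal sums (1.06) and without 15°C replicate 3. acs-7, tied to ascaroside biosynthesis and also named after its values were seen, had a log2 fold change of 0.66 (adjusted p = 0.0098 from limma). It overlaps C01G6.9 on the opposite strand, itself called higher, with means of 4.70 ± 1.66 and 14.1 ± 0.714 FPKM (SD, n = 3). Over the family, 11 of 18 genes had a log2 fold change above 0, against 48.2% of all tested genes, and the median was 0.016.

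**Figure D2:**
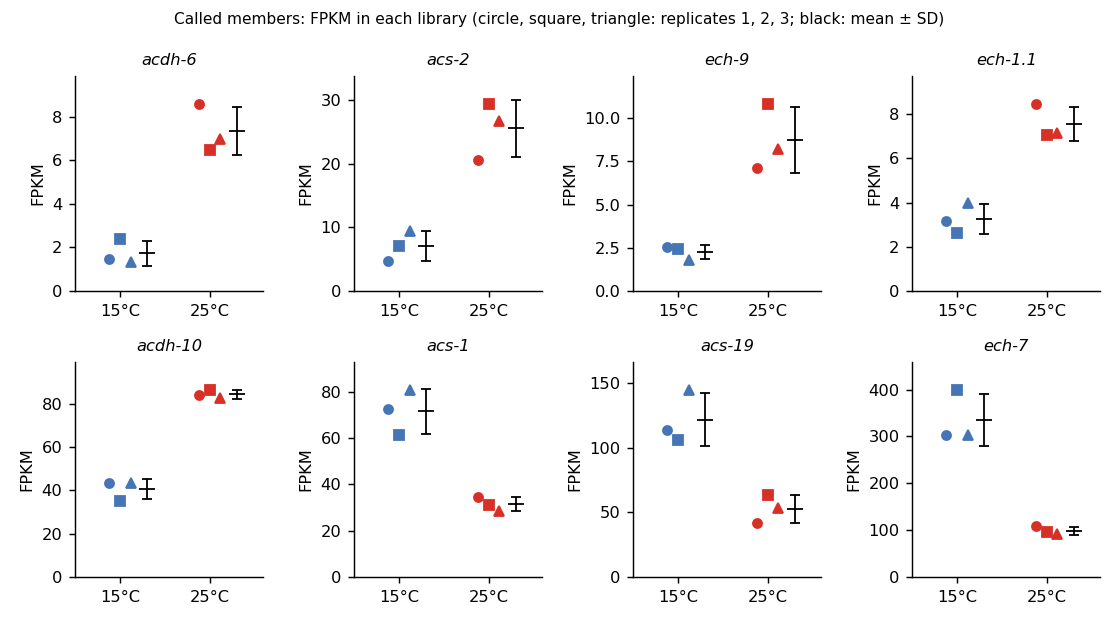
FPKM of the 8 called members in each library, with 15°C in blue and 25°C in red, replicates 1, 2 and 3 as circle, square and triangle, and the mean ± SD (n = 3) in black. Each vertical axis starts at 0, and in none of the 8 genes do the 2 temperatures overlap.

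Acyl-CoA dehydrogenases make the first double bond of a beta-oxidation round in mitochondria. Of the 10 genes, 2 rose and 0 fell by limma, where 6.96% of all tested genes rose and 5.59% fell. By unadjusted p under 0.05, 7 were higher and 0 lower, against 22.9% and 26.9% of all tested genes. Treat called 0 in either direction. acdh-6, on chromosome III from 8561136 to 8563026, measured 1.45, 2.39 and 1.32 FPKM in the 15°C libraries against 8.59, 6.49 and 6.97 in those at 25°C. The lowest 25°C library was thus above the highest 15°C library, at a low level at both temperatures. The means differed 4.27-fold, with a log2 fold change of 1.84 ± 0.24 (SE, limma adjusted p = 0.0016). acdh-10 and acdh-7, homologs of the medium-chain acyl-CoA dehydrogenase, are neighbours on the minus strand of chromosome X. acdh-10 measured 43.2, 35.1 and 43.5 FPKM in the 15°C libraries against 84.0, 86.3 and 82.5 in those at 25°C, a log2 fold change of 1.05 ± 0.12 (SE, limma adjusted p = 0.0011). It was the called member nearest to the fold threshold of 1, and without 15°C replicate 2, the lowest library, it was at 0.95 and not called. acdh-7, named after its values were seen, was at 25.8 ± 3.52 and 40.5 ± 3.09 FPKM (SD, n = 3 for each), with a log2 difference of 0.65 (adjusted p = 0.0105 from limma).

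acdh-1 catalyses the first step of the propionate shunt, a breakdown route used when vitamin B12 is scarce, and was the member with the highest level. It measured 2457, 2358 and 2318 FPKM in the 15°C libraries against 3309, 2889 and 2972 in those at 25°C. All 25°C libraries were above all 15°C libraries, by 1.29-fold in means (log2 fold change 0.36, standard error 0.098, adjusted p = 0.025 from limma), which did not pass the test. acdh-11, known for its part in heat adaptation through the sequestering of fatty acids, measured 19.9, 20.6 and 26.4 FPKM in the 15°C libraries against 29.7, 31.3 and 27.3 in those at 25°C. The groups did not overlap, but the nearest libraries were 26.4 and 27.3 FPKM, and the log2 fold change of 0.40 (95% interval 0.055 to 0.75, adjusted p = 0.066 from limma) did not pass. acdh-4, which the study used as a gene for comparison, measured 79.6, 87.0 and 58.0 FPKM in the 15°C libraries against 77.1, 62.0 and 70.9 in those at 25°C. Its ranges overlapped, and the interval of its log2 fold change ran from -0.49 to 0.33. acdh-12, the homolog of the very long-chain enzyme and named after its values were seen, had the lowest log2 fold change of the family, -0.26 (adjusted p = 0.15 from limma), with overlapping libraries.

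The ech- genes include hydratases and multifunctional proteins of the later steps, and 3 of 8 were called, 2 higher and 1 lower. Of all tested genes, 12.5% were called, 6.96% higher and 5.59% lower. ech-7, on chromosome I, had the lowest log2 fold change of the tested members. It measured 303.0, 399.3 and 303.25 FPKM in the 15°C libraries against 108.4, 96.7 and 91.4 in those at 25°C. The 25°C libraries were close together and far below, with a 3.39-fold lower mean and a log2 fold change of -1.75 ± 0.14 (SE, limma adjusted p = 0.00031). Its call held in all 6 settings that left out 1 library. It also held with median-ratio scaling and with division by the library sum, whether as TPM or as equal sums. In contrast, ech-9, on chromosome IV, measured 2.54, 2.41 and 1.76 FPKM in the 15°C libraries against 7.11, 10.8 and 8.23 in those at 25°C, a 3.90-fold rise with a log2 fold change of 1.74 ± 0.22 (SE, limma adjusted p = 0.0015). ech-8, which lies 1296 bases away on the same strand and is named after its values were seen, was at 13.2 ± 1.56 and 19.01 ± 0.532 FPKM (SD, n = 3 for each), with a log2 difference of 0.52 that did not pass (adjusted p = 0.022 from limma).

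ech-1.1 and ech-1.2 both encode homologs of the alpha subunit of the mitochondrial trifunctional protein, which acts on long-chain esters. ech-1.1 measured 3.14, 2.63 and 3.98 FPKM in the 15°C libraries against 8.47, 7.05 and 7.16 in those at 25°C, a log2 fold change of 1.12 ± 0.19 (SE, limma adjusted p = 0.0050). The groups were separate, but the call was lost in 5 of the 6 settings that left out 1 library, with log2 fold changes of 1.102 and 0.99 when 15°C replicate 1 or 2 was left out, and 1.04, 1.16 and 1.149 when 25°C replicate 1, 2 or 3 was. ech-1.2, the more abundant, measured 141.2, 115.7 and 153.9 FPKM in the 15°C libraries against 97.7, 114.2 and 100.7 in those at 25°C. Its 25°C libraries were all lower, with a log2 fold change of -0.39 that did not pass (adjusted p = 0.061 from limma). ech-1.1 made up 2.31% ± 0.186 of the summed FPKM of both genes at 15°C and 6.81% ± 1.09 at 25°C (SD, n = 3 for each), without overlap. How reads shared by such related genes were assigned is not given in the sources used here.

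Of the 5 acyl-CoA oxidases, 0 were called by limma or by treat. At an unadjusted p under 0.05, 2 were higher and 1 was lower, against 22.9% and 26.9% of all tested genes. These 3 also passed the adjusted p without the fold threshold, as did 19.6% of all tested genes. Among the members past the adjusted p of 0.01, acox-1.6 was the one just under the fold threshold. It measured 12, 12.5 and 15.2 FPKM in the 15°C libraries against 29.4, 23.8 and 26.6 in those at 25°C, and with a log2 fold change of 0.98 ± 0.15 (SE, limma adjusted p = 0.0030) its groups were separate. It was called when 15°C replicate 3 (1.08) or 25°C replicate 2 (1.06) was left out, with rescaling to TPM (1.11), with equal sums (1.16), with median-ratio scaling (1.01) and with a pseudocount of 0.1 (1.004). acox-1.5, the most abundant oxidase, measured 77.8, 82.5 and 78.9 FPKM in the 15°C libraries against 136.1, 123.1 and 138.4 in those at 25°C. This is a log2 fold change of 0.73 ± 0.10 (SE, limma adjusted p = 0.0022), with all 25°C libraries higher. acox-1.3, named after its values were seen, was lower at 25°C, at 24.0 ± 1.06 and 12.9 ± 0.178 FPKM (SD, n = 3 for each), with a log2 difference of -0.87 (adjusted p = 0.0019 from limma). Its neighbour acox-1.1, 4704 bases away on chromosome I and of known use in ascaroside side-chain shortening, had overlapping libraries, at 28.9 ± 3.16 and 25.7 ± 1.81 FPKM. maoc-1, the peroxisomal hydratase that follows the oxidases, measured 138.9, 162.9 and 123.9 FPKM in the 15°C libraries against 176.3, 142.8 and 153.5 in those at 25°C. Its ranges overlapped (95% interval of the log2 fold change -0.17 to 0.48).

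The carnitine palmitoyl transferases control the entry of long-chain esters into mitochondria. Of the 5 tested, 0 were called by limma or by treat, with 1 higher and 1 lower by unadjusted p under 0.05. Of all tested genes, 22.9% passed that level as higher and 26.9% as lower. cpt-2, the homolog of the inner-membrane enzyme and the most abundant, measured 86.3, 103.3 and 103.8 FPKM in the 15°C libraries against 113.3, 92.5 and 113.95 in those at 25°C. The groups overlapped (95% interval of the log2 fold change -0.19 to 0.44). cpt-1 overlapped as well, at 37.1 ± 10.6 and 33.2 ± 6.29 FPKM (SD, n = 3 for each). The remaining genes of the family were at lower levels, and the members named next were chosen after their values were seen. cpt-4 measured 4.92, 2.02 and 3.41 FPKM in the 15°C libraries against 7.36, 7.39 and 6.37 in those at 25°C, with a log2 fold change of 0.998 that did not pass (adjusted p = 0.029 from limma). cpt-6 was at 4.25 ± 0.604 and 2.33 ± 0.269 FPKM (SD, n = 3 for each), with a log2 fold change of -0.74 (adjusted p = 0.021 from limma). Both of these genes had separate groups, in opposite directions.

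The members covered a wide range of levels, from a mean over all 6 libraries of 1.49 FPKM for acs-3 to 2717 FPKM for acdh-1 among those tested. Grouping by the 15°C mean, which is also the base of the fold change, can make low genes lean to rises and high genes to falls. All tested genes showed such a lean, with median log2 fold changes of 0.22, -0.13 and -0.20 from the lowest to the highest group. Its cause was not tested. Of the 13 members with a mean under 10 FPKM at 15°C, 4 were called higher and 0 lower by limma. Of all tested genes at that level, 10.96% were called higher and 3.31% lower. The log2 fold change was above 0 in 11 of the 13 members, and in 2928 of all 4561 tested genes at that level. Of the 22 members between 10 and 100 FPKM, 1 was called higher and 1 lower, 4.55% each, against 5.68% and 6.71% of all tested genes at that level. Of the 12 members over 100 FPKM, 0 were called higher and 2 lower, against 2.67% and 7.07% of all tested genes at that level. Treat called 0 members at any level. A gene under 1 FPKM at 15°C can pass the filter through its level at 25°C, and this bears on all tested genes of the lowest group. The tested members all had a 15°C mean above 1 FPKM, the lowest being acs-3 at 1.14 FPKM. Within a temperature, the coefficient of variation had a median of 14.1% at 15°C and 7.86% at 25°C over the members, and it was larger at 15°C in 37 of 47, or 78.7%. Over all tested genes the medians were 16.2% and 12.3%, and it was larger at 15°C in 63.3%.

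**Figure D3:**
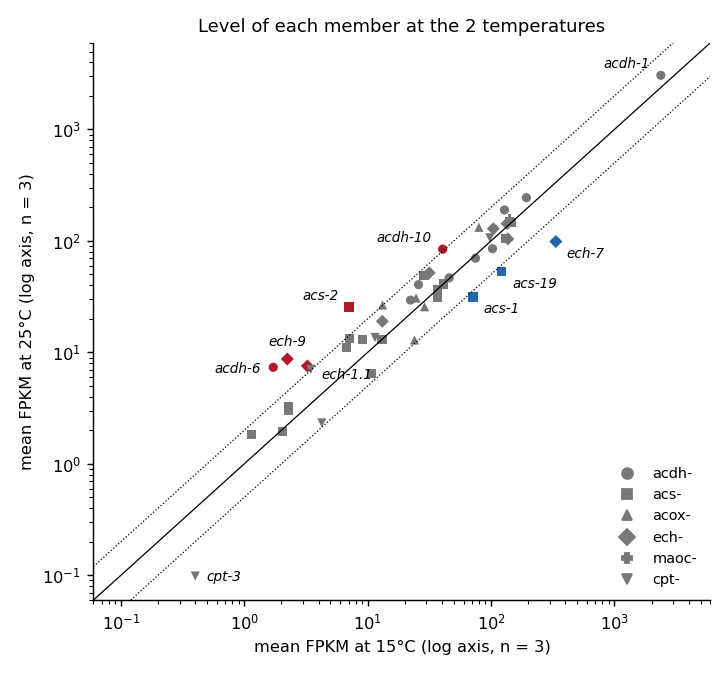
Mean FPKM of each of the 48 members at 15°C and at 25°C (n = 3 each, both axes logarithmic), with a symbol for each family, red and blue for members called higher and lower, a solid line for equal levels and dotted lines for a 2-fold difference. The 4 red symbols under 10 FPKM at 15°C are acdh-6, ech-9, ech-1.1 and acs-2, while the blue symbols lie at 71.5 FPKM and above at 15°C.

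Summed over the 48 members, the level went from 4916 ± 55.9 to 5550 ± 241 FPKM (SD, n = 3 for each), higher in every 25°C library. acdh-1 made up 48.4% ± 1.34 of this sum at 15°C and 55.0% ± 1.596 at 25°C. Without acdh-1 the sums were 2538 ± 73.0 and 2493 ± 17.7 FPKM, and the libraries overlapped. By family, the summed acdh- level was 3014 ± 69.4 and 3854 ± 224 FPKM and that of the acox- genes 171 ± 4.23 and 228 ± 12.8 FPKM, both without overlap. The summed ech- level was 762 ± 24.0 and 562 ± 13.5 FPKM, also without overlap, and it was lower at 25°C after rescaling to TPM as well. ech-7 held 43.9% ± 5.95 of the ech- sum at 15°C and 17.6% ± 1.34 at 25°C. The lower ech- sum was not shared by most of its genes, as 6 of the 8 had a log2 fold change above 0, against 48.2% of all tested genes. The summed acs- level, 674 ± 71.8 and 585 ± 20.9 FPKM, overlapped, although the share of acs-19 in it was 17.98% ± 1.27 at 15°C and 9.01% ± 1.54 at 25°C. Among the oxidases, acox-1.5 went from 46.8% ± 1.21 to 58.0% ± 1.55 of the acox- sum and acox-1.3 from 14.1% ± 0.523 to 5.67% ± 0.312, again with separate libraries. The shares of the most abundant cpt- and acdh- genes overlapped between the temperatures, with cpt-2 at 63.5% ± 6.37 and 65.3% ± 4.96 and acdh-1 at 78.9% ± 0.655 and 79.3% ± 1.18 of their family.

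**Figure D4:**
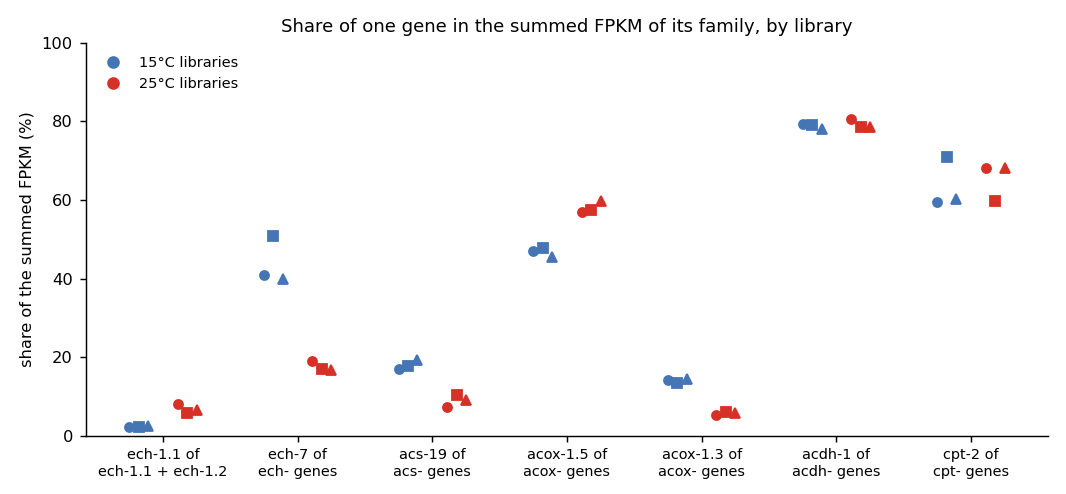
Share of a gene in the summed FPKM of its family, in percent, in each 15°C library (blue) and 25°C library (red), with replicates 1, 2 and 3 as circle, square and triangle. For ech-1.1 the share is that of the summed FPKM of ech-1.1 and ech-1.2 only. The shares of ech-7, acs-19 and acox-1.3 are lower and those of ech-1.1 and acox-1.5 higher in every 25°C library, while those of acdh-1 and cpt-2 overlap.

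The 48 members lie on all 6 chromosomes of the WBcel235 assembly, with 9 on I, 9 on II, 6 on III, 6 on IV, 12 on V and 6 on X. All were matched by name to the Ensembl annotation as protein-coding genes. There were 4 pairs within 10 kb of each other, namely acdh-10 with acdh-7, ech-8 with ech-9, acox-1.1 with acox-1.3, and acdh-12 with maoc-1. The first 3 pairs lie on 1 strand each. In the first 2 of them both genes were higher in every 25°C library, whereas acox-1.3 was lower and acox-1.1 overlapped. acdh-12 and maoc-1 start apart from each other on opposite strands, 634 bases apart, and overlapped between the temperatures. The called members were spread over chromosomes I, III, IV, V and X, with 3 of the 8 on V.

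The other genes of these routes were taken from lists of 89 genes, of which 69 were tested. By limma 2 were called higher and 1 lower, 4.35% against the 12.5% of all tested genes, and 1 was called by treat. At an unadjusted p under 0.05, used for each list below, 22.9% of all tested genes were higher and 26.9% lower. Of 17 tested peroxisomal partners, 0 were called by limma or treat, with 7 higher and 0 lower by unadjusted p under 0.05. DAF-22, the thiolase that ends a peroxisomal round, was among these 7, with daf-22 at 97.9 ± 8.25 and 127 ± 8.36 FPKM (SD, n = 3 for each), with a log2 difference of 0.37. Of 10 mitochondrial partners, 0 were called by limma or treat, with 2 higher and 1 lower by unadjusted p under 0.05. The largest difference among them was that of B0272.3, a homolog of hydroxyacyl-CoA dehydrogenase, with a log2 fold change of 0.69 (adjusted p = 0.0051 from limma). The 11 genes of the propionate routes had 0 called by limma or treat, with 2 higher and 1 lower by unadjusted p under 0.05, and a median of -0.17 against -0.032 over all tested genes. With TPM both medians were higher, at 0.015 and 0.12. Of these, hphd-1, which acts downstream of acdh-1 in the shunt, was at 501 ± 79.8 and 694 ± 20.5 FPKM (log2 fold change 0.48, adjusted p = 0.027 from limma). hach-1, also of the shunt, had overlapping libraries, at 491 ± 40.4 and 488 ± 32.2 FPKM. The gene lower by unadjusted p was alh-8, a shunt gene too, at 593 ± 76.6 and 470 ± 61.2 FPKM (log2 fold change -0.34), and its libraries overlapped as well. Of 5 genes of branched-chain amino acid breakdown and 6 genes of acyl-CoA binding, 0 were called by limma or treat, with 2 higher and 0 lower and with 2 higher and 1 lower by unadjusted p under 0.05. daf-22, B0272.3, hphd-1, hach-1 and alh-8 are named after their values were seen.

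Lipases release the fatty acids that these enzymes use, and 2 of 9 tested were called higher, against 6.96% of all tested genes. The other 7 had log2 fold changes below the median of all tested genes, -0.032, with a list median of -0.21. However, 0 were called lower by limma or treat, and 1 was lower by unadjusted p under 0.05. Of the 9 tested, 3 were lower in every 25°C library, or 33.3%, near the 28.7% of all tested genes. lipl-5, a lysosomal lipase, rose, with means of 288 ± 29.9 and 614 ± 13.8 FPKM (SD, n = 3; log2 fold change 1.097, adjusted p = 0.00061 from limma) and lipl-2 rose from 2.65 ± 0.202 to 16.5 ± 4.19 FPKM (log2 fold change 2.41, adjusted p = 0.00037). Among 11 tested regulators of lipid metabolism, the nuclear receptor gene nhr-114 fell from 128 ± 16.5 to 49.9 ± 1.89 FPKM (log2 fold change -1.34, adjusted p = 0.00052 from limma). nhr-10 and nhr-68, which encode nuclear receptors that act together to induce acdh-1, were higher in every 25°C library by less than 2-fold. nhr-68 was at 124 ± 16.2 and 214 ± 29.6 FPKM (log2 fold change 0.79, adjusted p = 0.0063 from limma), and nhr-10 at 24.4 ± 3.22 and 37.4 ± 2.12 FPKM (0.61, adjusted p = 0.012). daf-16, the FOXO transcription factor gene and named after its values were seen, was lower in every 25°C library, at 49.5 ± 8.78 and 28.7 ± 1.63 FPKM (log2 fold change -0.76, adjusted p = 0.0077 from limma). mdt-15, a Mediator subunit that works with NHR-49, overlapped, at 27.97 ± 8.91 and 23.02 ± 3.02 FPKM. nhr-49 itself was not analysed here.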

How the data were processed

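RNA was sequenced from whole L4 worms in 6 libraries, 3 per temperature, made with a stranded mRNA kit and read in pairs. Per the labels and methods, reads were mapped to WBcel235 by TopHat2 (version 2.0.6), and Cufflinks tools gave the FPKM per gene and library that the authors deposited. The sources used here give neither a filter before deposit nor the strand setting. The values follow no whole-read steps (the smallest is 9.8e-258), so depth is unknown and no counting interval was made.

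The whole table was fitted, without further scaling, in limma 3.58.1 under R 4.3.3, on log2(FPKM + 0.5) with an intensity trend, all 6 libraries, no covariate and two-sided tests, keeping genes whose mean reached 1 FPKM. Benjamini-Hochberg adjustment covered all tested genes, and the call thresholds followed the study. The fit was tested on simulated data. Positions are from Ensembl release 115, and no sequence was used. Tables and figures were made in Python 3.11.15 with numpy 2.4.6, pandas 2.3.3 and matplotlib 3.10.9.

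The prefixes, and so the members, and the lists were chosen with earlier results of these data known, although the prefix rule reads only names. The rule for named genes took every called member, acdh-11, acdh-1, acs-2 and acdh-4, the most abundant member of each prefix and, among those past the adjusted p of 0.01, the nearest member on each side of the fold threshold, and of the partner lists the called genes, nhr-49, nhr-10, nhr-68 and mdt-15. Among the marker lists not described above, limma and treat called 0 of 6 body-wall muscle genes (unadjusted p under 0.05 in 0 higher and 2 lower) and 0 of 8 neuron genes (1 higher and 1 lower), and limma called 1 of 5 hypodermal genes higher, while 3 of the 5 were lower by unadjusted p and in every 25°C library (median log2 fold change -0.48). The settings varied were the pseudocount (0.1 or 1), the filter (none, or a mean reaching 5 FPKM), the scaling (median-ratio, TPM, or each library brought to the mean sum), the thresholds (adjusted p under 0.05, or no fold), the trend, a block for the replicate number, treat, and each library left out.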

Additional observations from a re-analysis of the deposited data

How the results depend on the processing

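Treat called 0 members in either direction, 1 partner gene and 163 of all tested genes. Without the fold threshold, 15 members were called, 11 of them higher, with 6 partner genes and 2547 of all genes. With equal sums 1 member was called lower. Leaving out 1 library gave 5 to 9 members called, 3 to 7 called higher and 2 to 3 called lower, and 904 to 1617 of all tested genes. The values that changed sign were within their error of 0, those of acdh-4 with TPM (0.10), with equal sums (0.10) and with 1 library left out (-0.25 to 0.037), and of acs-5 with 1 library left out (-0.073 to 0.12). With the replicate number as a block, 6 members were called, without acs-19 (adjusted p = 0.012 from limma) and ech-1.1 (adjusted p = 0.017), and 1003 of all genes. Libraries of the same number deviated together with correlations of -0.035, -0.10 and -0.050, so the numbers were not taken as pairs. A mean of at least 5 FPKM removed acdh-6 from the test. The other pseudocounts, no filter, median-ratio scaling, no trend and an adjusted p under 0.05 kept all 8 called members, with acox-1.6 added at a pseudocount of 0.1 and with median-ratio scaling. Depth is unknown, and 3 libraries per temperature limit the precision.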
